A study of Mus musculus with 3 samples.

Results

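The genes described here carry a T cell's calcium signal from the endoplasmic reticulum to the nucleus: Stim1, Stim2, Orai1, Orai2, Kcna3, Ppp3ca, Ppp3cb, Nfatc1, Nfatc2 and Nfatc3. They were taken by name and are 10 of 55536 annotated genes, of which 22028 are protein-coding. All 10 were matched by gene identifier to the GENCODE M21 annotation on mm10, and all 10 passed the filter on low counts.

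PolyA-selected RNA was measured in naive CD4 alpha-beta T cells, described in the labels as thymus-derived, from a male adult mouse aged 5 months of the strain B6.SJL-Ptprca Pepcb/BoyJ. The cells were primary cells with no treatment, transgene or deletion named, and the labels name no comparison group. The 3 libraries are technical replicates of 1 biological replicate, so every SD and p-value below describes the spread between libraries and none covers the spread between mice. In bulk RNA of this kind, fewer cells that express a gene and less of its RNA per cell cannot be told apart.

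When the T cell receptor is engaged, phospholipase C gamma 1 generates IP3, which opens IP3 receptors and empties the calcium store of the endoplasmic reticulum. STIM proteins sense the emptied store and open ORAI channels in the plasma membrane, while potassium channels such as Kv1.3, encoded by Kcna3, keep the membrane potential negative enough for calcium to keep flowing in. Calcium-bound calmodulin then activates the phosphatase calcineurin, which dephosphorylates NFAT proteins so that they enter the nucleus. Mutations of ORAI1 or STIM1 cause severe immunodeficiency, and cyclosporin A and tacrolimus suppress T cells by blocking calcineurin.

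Expected counts, the estimated reads per gene, summed to 14837442, 18207118 and 17505621 in libraries 1, 2 and 3. All 5 CD4 T cell markers checked (Cd3e, Cd3d, Cd4, Trac, Lck) were detected, with a median of 760.5 TPM (a level per gene length, scaled to the same total in each library), and Cd8a, which marks CD8 T cells, had a mean of 0.140 TPM. Of 27 markers of other cell types, 5 reached 1 TPM in every library. The summed level of the 27 was 27.8, 30.0 and 29.2 TPM, of which Cd8b1 held 16.8, 16.99 and 17.2. The others that reached 1 TPM were Epcam, Cd79a, Itgam and Hbb-bs, with means of 3.30, 2.06, 1.63 and 1.18 TPM. Of the platelet markers, Ppbp had no count and Pf4 had 3. Library 2 stood apart in its ribosomal protein genes, which took 9.74% of its TPM against 6.86% and 6.57% in libraries 1 and 3. Whether that difference has a part in the TPM differences below was not tested.

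The 3 short coding exons shown next are skipped in some annotated coding transcripts, keep the reading frame, and had an inclusion level above 0; a further 2 of Stim1 were included at 0.700% or less and are not shown. Each is printed 5′ to 3′ on the gene's strand from the GENCODE M21 transcripts, with the exon in capitals and 12 bases of the neighbouring exon on each side in lower case.
Ppp3ca exon 13: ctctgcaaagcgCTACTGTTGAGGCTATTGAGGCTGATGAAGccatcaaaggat
Ppp3cb exon 13: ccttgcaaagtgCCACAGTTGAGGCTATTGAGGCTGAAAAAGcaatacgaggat
Stim2 exon 9: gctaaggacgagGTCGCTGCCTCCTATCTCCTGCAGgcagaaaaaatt
The exons lie at chr3:136932011-136932040 (plus strand), chr14:20503247-20503276 (minus strand) and chr5:54110116-54110139 (plus strand) on mm10. The Ppp3ca and Ppp3cb exons both have 30 bases, 26 of them identical, and the Stim2 exon has 24 bases.

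All 10 genes were expressed at 20 TPM or more on average, and their median of 91.7 TPM lies above the median of 31.4 TPM over the 9823 protein-coding genes detected in every library. Orai1 was the highest and Ppp3cb the lowest, in the order Orai1, Stim1, Nfatc1, Nfatc3, Orai2, Ppp3ca, Stim2, Nfatc2, Kcna3, Ppp3cb. For 7 of the 9 neighbouring pairs in this order, the ranges over the libraries did not overlap. The exceptions were Nfatc1 with Nfatc3 and Orai2 with Ppp3ca, where the first gene was higher in only 2 of 3 libraries. The order depended on the measure. On coding transcripts alone, 3 of the 10 genes kept their place, and Stim1, at 69.9 TPM, lay below Nfatc1, Nfatc3 and Orai2. In counts without length correction, 4 kept their place, and Stim1, Nfatc3 and Nfatc1 lay above Orai1.

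**Figure D1:**
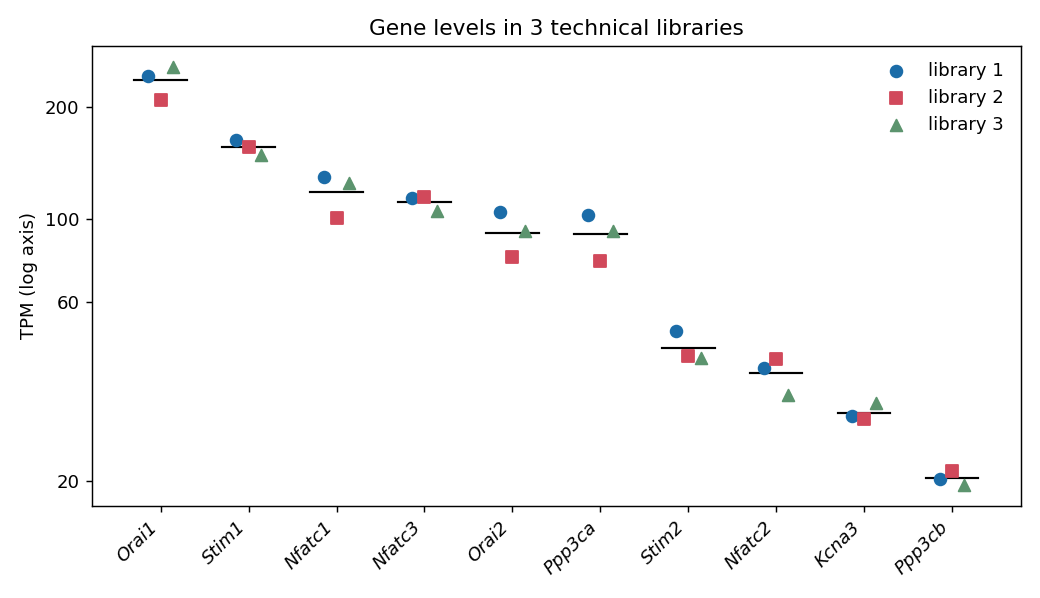
TPM on a log axis for each gene in libraries 1 to 3 (points), with the mean as a black bar, sorted by mean. The 3 points of a gene lie close together beside the distance from Orai1 (235 TPM) to Ppp3cb (20.4 TPM), and library 2 is the lowest for Orai1, Nfatc1, Orai2, Ppp3ca and, by a small margin, Kcna3.

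Stim1, the calcium sensor that gates ORAI channels when the store is emptied, was at 163, 156 and 148 TPM in libraries 1, 2 and 3. Stim2, its paralog that responds to smaller falls of store calcium, was at 50.4, 43.2 and 42.6 TPM. The libraries did not overlap between the genes: Stim1 averaged 156 ± 7.55 and Stim2 45.4 ± 4.35 TPM (SD, n = 3). Stim1 (chr7:102267806-102437319, plus strand) rested on 17176 counts and Stim2 (chr5:53998499-54121057, plus strand) on 3972. The log2 ratio of Stim1 to Stim2 was 1.69, 1.85 and 1.80, a mean of 1.78 ± 0.08. Pooled over libraries, Stim1 was 3.45 times Stim2 (exact Clopper-Pearson 95% interval 3.33 to 3.57, which covers counting error only).

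More of the Stim1 level was assigned to intron-retaining transcripts than to coding ones. Stim1-201, the coding transcript with 12 exons, took 43.5%, 47.6% and 43.2% of the gene's TPM. Stim1-208, a retained-intron transcript of 1 exon at the 5′ end of the gene (chr7:102267812-102271648, 3837 bases), took 42.7%, 39.9% and 43.1%. Stim1-203, another retained-intron transcript that spans 3 exons, took 11.9%, 10.5% and 12.7%. Coding transcripts together held 44.9% ± 2.35 of Stim1 TPM (SD, n = 3), or 69.9 ± 5.26 TPM.

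Stim2 had less of its level outside coding transcripts, and 71.0% ± 6.16 of its TPM was coding. The full-length Stim2-201 took 38.7%, 42.4% and 50.01%, and the shorter coding model Stim2-203 took 29.0%, 20.7% and 27.4%. Stim2-202, a noncoding processed transcript of 553 bases, took 29.5%, 30.3% and 22.6%. This share rested on 64.4, 73.5 and 49.6 counts, and without length correction it averaged 4.75%. On coding transcripts alone, the log2 ratio of Stim1 to Stim2 was 1.12 ± 0.24, and with counts on an older annotation (GENCODE M4) it was 0.76 ± 0.16. Stim1 thus remained above Stim2 under each alternative, by a smaller ratio under these ones.

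The Stim2 exon printed above belongs to Stim2-204, and inclusion of this exon in STIM2 proteins is known to give an inhibitory form. Among coding transcripts that cover the position, its inclusion was 3.91%, 3.06% and 0% in libraries 1, 2 and 3. Most Stim2 coding RNA was therefore assigned to transcripts that skip it, and the estimate for library 3 gave none to the form that includes it. The posterior mean estimates put Stim2-204 at 2.11, 1.17 and 0.65 TPM, with deposited credibility intervals that overlap between libraries. Stim1-202, whose reading frame of 793 codons is longer than the 685 codons of Stim1-201, had 0.19%, 0% and 0% of Stim1 TPM.

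Orai1 encodes the main pore subunit of the store-operated channel and was at 241, 208 and 256 TPM. Orai2, whose product can join ORAI1 in mixed channels and lower their current in T cells, was at 104, 79.1 and 92.8 TPM. Library 2 had the lowest level of both, and every Orai1 value lay above every Orai2 value. The means were 235 ± 24.2 TPM for Orai1 (chr5:123015074-123030456, plus strand) and 92.1 ± 12.7 TPM for Orai2 (chr5:136147459-136170713, minus strand). Orai3, the third paralog, averaged 3.51 ± 0.626 TPM. Within the family, Orai1 held 71.1% ± 1.90, Orai2 27.8% ± 1.83 and Orai3 1.06% ± 0.0893 of the summed TPM (SD, n = 3), so these shares varied less than the levels.

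The log2 ratio of Orai1 to Orai2 was 1.21, 1.40 and 1.46, a mean of 1.35 ± 0.13, and the pooled ratio was 2.57 (2.50 to 2.64). This ratio depends on gene length, because the genes had similar counts, 10992 for Orai1 and 9728 for Orai2, over mean effective lengths of 1570 and 3567 bases. Without a length correction, the log2 ratio was 0.17 ± 0.14. The counts on the older annotation moved it the other way, to 3.64 ± 0.12, since they held only 102, 107 and 99 counts for Orai2. That is 3.17% of the Orai2 expected counts, against a median of 50.7% over 8577 genes with 300 or more expected counts, and 2.73% of those genes lay lower. Orai1 stayed above Orai2 in each of these measures, while the size of the difference changed widely. Orai2 to Orai3 moved too, from 4.68 ± 0.08 in TPM to 1.46 ± 0.19 on the older annotation.

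Both ORAI genes were read almost wholly as coding transcripts, 96.1% ± 0.854 of TPM for Orai1 and 90.6% ± 1.07 for Orai2. Orai1-201 and Orai1-202, which have reading frames of the same 304 codons, took steady shares of 57.1% ± 0.748 and 39.0% ± 0.360. Orai2 was less steady: Orai2-201, with 250 codons, took 64.0%, 46.6% and 52.2%. Orai2-202, with 264 codons, took 22.8%, 36.2% and 34.8%, so that library 1 was highest for the first form and lowest for the second. The retained-intron Orai2-204 took 8.82%, 10.6% and 8.78%.

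Kcna3, the voltage-gated potassium channel that sets the driving force for calcium entry, was at 29.7, 29.3 and 32.3 TPM, a mean of 30.5 ± 1.62. It has 1 annotated transcript, Kcna3-201, a single exon of 1902 bases (chr3:107036169-107038070, plus strand), so no assignment between forms enters its value. Kcnn4, the calcium-activated potassium channel KCa3.1 that serves the same purpose, was at 179, 152 and 189 TPM. Every Kcnn4 value lay above every Kcna3 value, and Kcnn4 was 5.65-fold higher on average (log2 ratio of Kcna3 to Kcnn4, -2.50 ± 0.11). With counts on the older annotation (GENCODE M4) this log2 ratio was smaller in size, at -1.60 ± 0.12.

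Ppp3ca, the alpha catalytic subunit of calcineurin, was at 103, 77.5 and 93.1 TPM, and averaged 91.2 ± 12.8 (chr3:136670124-136937727, plus strand). Ppp3cb, the beta catalytic subunit, was at 20.3, 21.3 and 19.5 TPM, and averaged 20.4 ± 0.867 (chr14:20499364-20546573, minus strand). Library 2 was the lowest of the libraries for Ppp3ca and the highest for Ppp3cb, and the genes' ranges did not overlap. The log2 ratio of Ppp3ca to Ppp3cb was 2.34, 1.86 and 2.25, a mean of 2.15 ± 0.25, and the pooled ratio was 4.43 (4.18 to 4.69).

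The gamma catalytic subunit Ppp3cc, best known from testis, was close to Ppp3ca in these cells. It was at 82.1, 73.1 and 85.9 TPM and averaged 80.4 ± 6.58. Ppp3ca was higher in each library, but the ranges over libraries overlap. Of the summed TPM of the 3 catalytic genes, Ppp3ca held 47.4% ± 2.55, Ppp3cc 41.9% ± 1.72 and Ppp3cb 10.7% ± 1.45 (SD, n = 3). On coding transcripts alone the first 2 changed places, with Ppp3cc at 45.2%, 44.0% and 47.2% and Ppp3ca at 42.1%, 40.6% and 39.8%. Ppp3cb was the lowest by either measure.

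Only 53.5% ± 3.28 of Ppp3ca TPM was on coding transcripts, against 79.4% ± 4.15 for Ppp3cb. Ppp3ca-203, a noncoding processed transcript of 990 bases, took 37.4%, 32.0% and 34.5% of Ppp3ca TPM, and the retained-intron Ppp3ca-205 took 10.5%, 9.9% and 9.0%. Without length correction the shares of these transcripts averaged 18.9% and 2.23%, and Ppp3ca-205 had 36.5, 33.5 and 33.6 counts. With coding transcripts alone, the log2 ratio of Ppp3ca to Ppp3cb was 1.58 ± 0.17. The 2 coding transcripts of Ppp3ca differ by the exon printed above. Ppp3ca-201, which has it, took 44.3%, 49.8% and 46.9% of the gene's TPM, and among coding transcripts the exon was included in 88.7%, 88.2% and 87.0%. The matching exon of Ppp3cb was included in 100%, 92.8% and 93.4% of the coding transcripts that cover it. The coding form that skips it had 0, 26.5 and 22.4 counts, but posterior means of 0.9, 1 and 1.03 TPM in libraries 1, 2 and 3. In both genes, then, the form with the exon prevailed in every library. The Ppp3cb level was spread over several coding transcripts: Ppp3cb-205 took 44.3%, 36.1% and 34.2%, Ppp3cb-206 21.8%, 25.9% and 28.6%, and Ppp3cb-202 10.2%, 12.1% and 17.6%. The retained-intron Ppp3cb-208 took 12.6%, 9.99% and 5.12%. Library 1 was the highest for Ppp3cb-205 and Ppp3cb-208 and the lowest for the other coding forms named. For each of these forms the deposited credibility intervals of TPM overlap between libraries, and Ppp3cb-208 rested on 12.8, 13.9 and 5.98 counts.

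Nfatc1 was at 130, 101 and 125 TPM, Nfatc2 at 40.1, 42.3 and 34.0 TPM, and Nfatc3 at 114, 115 and 105 TPM in libraries 1, 2 and 3. Nfatc1 (chr18:80606205-80713071, minus strand) averaged 118.5 ± 15.4 TPM and Nfatc3 (chr8:106058840-106130537, plus strand) 111 ± 5.09 TPM, with ranges that overlap. Nfatc2 (chr2:168476410-168601657, minus strand) averaged 38.8 ± 4.29 TPM, below both in every library. These genes encode the calcium-responsive NFAT transcription factors of lymphocytes. NFATc1 is known for its induction on activation, NFATc2 for its presence in resting T cells, and NFATc3 for its part in thymocyte development.

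Nfatc1 and Nfatc3 did not differ beyond the spread between libraries, with a log2 ratio of 0.19, -0.18 and 0.24 and a mean of 0.08 ± 0.23. Its sign depended on the measure, with -0.06 ± 0.20 for counts without length correction, -0.22 ± 0.16 on the older annotation and 0.46 ± 0.19 for coding transcripts. Nfatc1 was 3.01 times Nfatc2 in pooled data (2.92 to 3.10), with log2 ratios of 1.69, 1.25 and 1.87. Nfatc2 was below Nfatc3 by a log2 ratio of -1.52 ± 0.10. Nfatc4 had 1 count in all libraries together, and Nfatc3 per length was 6371 times it (1143 to 251658).

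The Nfatc2 level had, with Stim1, the smallest share of coding RNA; Nfatc2 was the lower of them in libraries 1 and 3, and Stim1 by a small margin in library 2. Its coding transcripts took 41.9%, 47.8% and 24.9% of TPM, a mean of 38.2% ± 11.9, so that only 15.2 ± 6.05 TPM was coding. Nfatc2-202, with 927 codons, took 30.5%, 22.8% and 20.2%, and Nfatc2-204, with 923 codons, took 11.4%, 24.99% and 4.69%. The retained-intron Nfatc2-206 took 22.5%, 21.5% and 24.9%, and the processed transcript Nfatc2-208 took 24.5%, 16.8% and 32.4%. Nfatc2-207, another retained-intron transcript, took 8.06%, 9.35% and 14.5%, highest in library 3. On coding transcripts, the log2 ratio of Nfatc1 to Nfatc2 was 3.04 ± 0.78 and that of Nfatc2 to Nfatc3 was -2.58 ± 0.60. Nfatc2 then ranked last of the 10 genes by its mean, a place that rests on library 3. Its coding TPM was 16.8, 20.2 and 8.48, against 15.5, 16.6 and 16.4 for Ppp3cb. For Nfatc3, 76.8% ± 4.15 of TPM was coding, and its main transcript Nfatc3-201 took 77.1%, 66.5% and 69.7%. The retained-intron Nfatc3-203 took 16.5%, 24.6% and 21.2%, with the order of the libraries turned round.

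**Figure D2:**
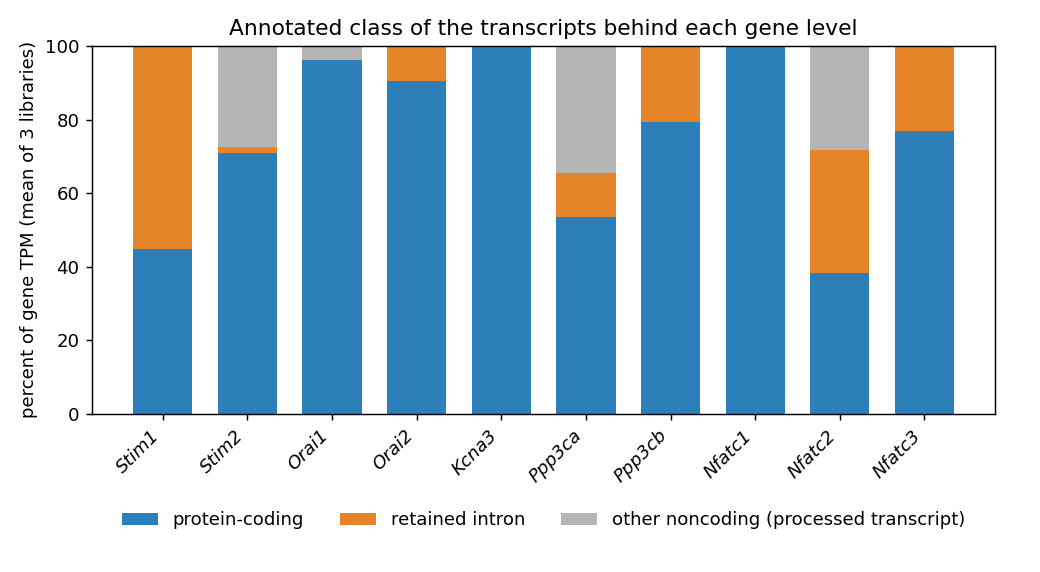
Percent of each gene's TPM (mean of 3 libraries) on transcripts annotated as protein-coding, retained intron or processed transcript. Stim1 (44.9%) and Nfatc2 (38.2%) are the genes with less on coding transcripts than on the rest, and Nfatc1 and Kcna3 are wholly coding.

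Across the 8105 detected protein-coding genes that also have other transcripts, the median share of TPM on coding transcripts was 77.2% and the lower quartile 54.8%. The 9 genes here with such transcripts had a median of 76.8%. Stim1, Nfatc2 and Ppp3ca lie under that lower quartile, and 17.7% of the 8105 genes were at or below Stim1 and 13.7% at or below Nfatc2. Reads shared between a coding transcript and a shorter noncoding one of the same gene are divided by the authors' estimate, so these shares are estimates and not counts of distinct molecules.

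**Figure D3:**
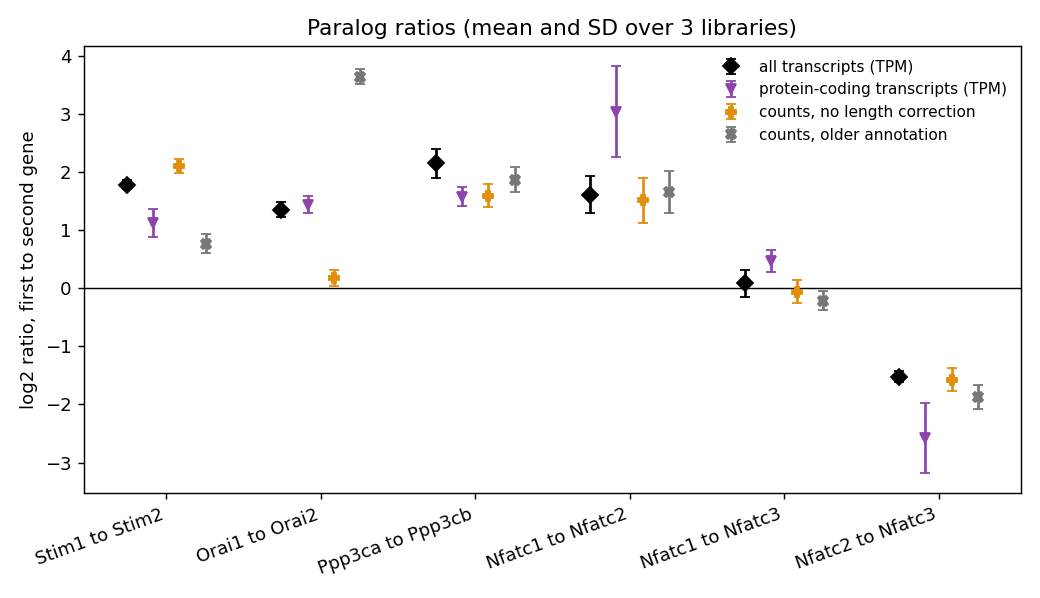
Log2 ratio of the first to the second gene of each pair (mean and SD over 3 libraries) by 4 measures: TPM of all transcripts, TPM of protein-coding transcripts, counts without length correction, and counts on the older annotation. Orai1 to Orai2 runs from 0.17 to 3.64 between measures, and Nfatc1 to Nfatc3 lies on both sides of 0.

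Nfatc1 has 2 main promoters and 2 main 3′ ends. In the usual naming, transcripts from the upstream start are the alpha forms and those from the downstream start the beta forms, and use of the proximal polyadenylation site gives the short A form. In lymphocytes the short alpha form is known for its rise after activation, whereas beta forms are made in resting cells. The annotation holds 6 coding transcripts. Nfatc1-206 and Nfatc1-201 have 8 exons, end at the proximal site and encode 717 and 703 codons. The other 4 have 10 exons and end at the distal site, with 827 codons (Nfatc1-202) and 939 codons (Nfatc1-204) from the upstream start and 813 codons (Nfatc1-205) and 925 codons (Nfatc1-203) from the downstream start. Each alpha form has 14 codons more than its beta counterpart.

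Transcripts from the downstream start made up most of Nfatc1, at 73.4%, 85.6% and 84.3% of TPM, and the upstream start gave 26.6%, 14.4% and 15.7%. Library 1 was the highest in the upstream share. The 3′ ends were close to even and steadier, since the proximal end took 53.2%, 51.5% and 54.1%, a mean of 52.9% ± 1.32 (SD, n = 3). The distal end took the rest, 47.1% ± 1.32. The upstream share averaged 18.9% ± 6.69, and 22.9% ± 3.10 from the posterior mean estimates.

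The single most abundant form was Nfatc1-201, downstream start with proximal end, at 41.2%, 39.9% and 38.9%. Its alpha counterpart Nfatc1-206 took 12.01%, 11.65% and 15.19%. Among proximal-ending transcripts alone, the upstream start thus gave 22.6%, 22.6% and 28.1%. The long forms varied more: Nfatc1-203 took 10.6%, 23.4% and 26.4%, and Nfatc1-204 took 14.6%, 2.62% and 0.54%. Nfatc1-205 was steadier at 21.6%, 22.3% and 18.9%. Nfatc1-202 took 0.12% at most by the maximum-likelihood values, but 4.37%, 5.41% and 6.39% from the posterior mean estimates. The noncoding Nfatc1-207 was listed at 0 in every library by the maximum-likelihood values.

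The upstream share among distal-ending transcripts was therefore 31.2% in library 1 and 5.68% and 1.19% in libraries 2 and 3. The deposited credibility intervals, whose level is not stated in the files, show how little the reads fixed these forms. For Nfatc1-204 they ran from 0.583 to 25.4 TPM in library 1, from 0.659 to 15.8 in library 2 and from 0.110 to 19.3 in library 3, and so they overlap. For Nfatc1-203 the intervals were 1.63 to 25.2, 6.36 to 23.2 and 9.63 to 30.5 TPM. The short alpha form Nfatc1-206 was also loosely fixed, at 0.0779 to 14.6, 0.616 to 12.5 and 2.84 to 15.2 TPM. From the posterior mean estimates its share was 8.34%, 6.46% and 8.13%, below the share given above in each library. The intervals of Nfatc1-201 were narrower for their level, at 42.5 to 58.2, 32.5 to 45.8 and 42.8 to 56.1 TPM. The difference in the upstream share between library 1 and the others is thus within these intervals for the long form that carries it.

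**Figure D4:**
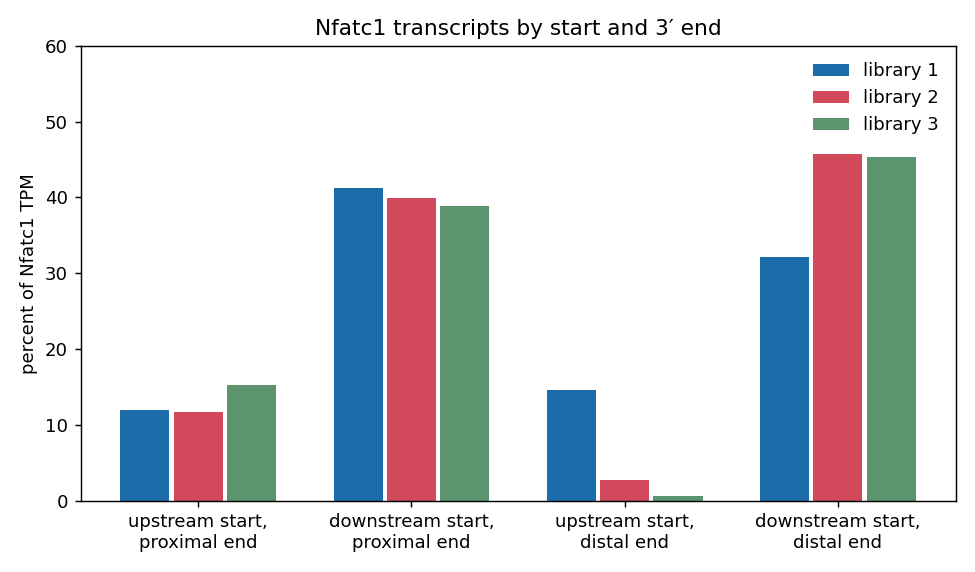
Percent of Nfatc1 TPM in 4 classes of coding transcript by start and 3′ end, with 1 bar for each library. The downstream start with the proximal end stays near 40% in every library, while the upstream start with the distal end is at 14.6% in library 1 and at 2.75% and 0.545% in libraries 2 and 3.

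The libraries were then compared gene by gene, with a chi-square test of homogeneity on rounded expected counts, TMM-scaled library sizes and Benjamini-Hochberg adjustment over 13090 genes. Of the genes tested, 5238 were called at an adjusted p under 0.05, a background of 40.0%, and 7 of the 10 calcium genes were among them. Among the 5214 genes with mean counts in the same range as these 10, 59.9% were called, so the count of 7 is not far from the share of genes of like depth. The median coefficient of variation of TMM-scaled CPM (counts scaled by library size) was 6.94% for the 10 genes and 6.52% for those 5214.

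Nfatc2 differed most, at 113, 132 and 88.4 TMM-scaled CPM, highest in library 2 and lowest in library 3 (1.49-fold from lowest to highest, adjusted p = 2.0e-32 by the chi-square test). Orai2 was at 216, 173 and 194 (adjusted p = 1.7e-16 by the same test), and Nfatc1 at 334, 283 and 325 (adjusted p = 2.1e-17), both lowest in library 2. For Stim1, Orai1, Ppp3ca and Nfatc3 the highest library was 1.13 to 1.15 times the lowest. Stim2 (adjusted p = 0.247), Kcna3 (0.442) and Ppp3cb (0.203) did not pass the chi-square test. Without library 2 the same test no longer called Ppp3ca (adjusted p = 0.597) or Nfatc1 (0.397), and without library 3 it no longer called Stim1 (0.143) or Nfatc3 (0.666). It then called 1903 of 12917 genes (14.7%) and 3615 of 13115 genes (27.6%), and 5 of the 10 genes in each case. Counts on the older annotation called 4 of the 10 genes, Stim1 and the 3 NFAT genes, beside 1895 of the 10013 genes tested (18.9%).

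The genes around these steps came from 11 lists with 83 genes, all of which were matched. Of these, 60 were detected, meaning at least 1 TPM in every library, with a median of 32.7 TPM over the 83, against 9823 of all 22028 protein-coding genes. Tested as above, 43 of 64 pathway genes with enough counts differed between libraries (67.2%), beside 40.0% of all genes tested and 59.9% of the genes in the count range given above.

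Upstream of the store, Plcg1, the phospholipase that makes IP3 below the T cell receptor, was at 181 ± 22.5 TPM. Of the IP3 receptors, Itpr2 was highest at 178 ± 7.12 TPM, while Itpr3 averaged 20.4 and Itpr1 17.8. The size of this difference depends on length. Itpr2, Itpr3 and Itpr1 had 14106, 5539 and 3482 counts over effective lengths of 2647, 8941 and 6487 bases. Itpr3 varied widely, at 19.9, 30.2 and 11.0 TPM in libraries 1, 2 and 3. Itpkb, the kinase that converts IP3 and limits store release, was at 112, 137 and 79.5 TPM. The 3 ryanodine receptor genes were each below 0.2 TPM on average. In all, 5 of the 8 release genes were detected.

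Among 10 modulators of calcium entry, 8 were detected. Saraf, which inactivates STIM1 channels after entry, was by far the highest at 1388 ± 95.7 TPM. The extended synaptotagmins Esyt1 and Esyt2, which tether the endoplasmic reticulum to the plasma membrane, were at 226 ± 8.90 and 168 ± 9.70 TPM. Stimate and Cracr2a, which promote the coupling of STIM1 to ORAI1, were at 20.9 ± 2.47 and 17.9 ± 1.32 TPM. Tmem178 had 0 counts, and a count of 0 allows up to 3 counts, or 0.212, 0.163 and 0.178 TPM.

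Calcium clearance genes were detected in 7 of 12 cases. The store pumps Atp2a3 (SERCA3) and Atp2a2 (SERCA2) were at 246 ± 20.9 and 73.4 ± 0.565 TPM, and the plasma membrane pump Atp2b1 at 130 ± 15.6 TPM. Atp2b4, another plasma membrane pump, was at 1.91 ± 0.833 TPM, and the sodium-calcium exchanger Slc8a1 had 1 count. Of 6 channels that shape the membrane potential or conduct cations, Kcnn4, Trpm7, Trpv2 and Trpm4 were detected. Trpm7, a magnesium and calcium channel with a kinase domain, was at 78.8 ± 6.20 TPM, above Kcna3, while Kcna2 and Kcnk5 were below 0.5 TPM.

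The partners of the catalytic subunits had the highest median of the lists with 7 of 8 detected, 159 TPM. The regulatory subunit Ppp3r1 was at 96.8 ± 12.9 TPM, and its paralog Ppp3r2 had 12 counts, a pooled ratio of 714 (408 to 1382). Calm2 and Calm3, which encode calmodulin, were at 505 ± 85.5 and 50.4 ± 6.70 TPM. Ppia, which encodes cyclophilin A, and Fkbp1a, which encodes FKBP12, are the proteins through which cyclosporin A and tacrolimus reach calcineurin. They were at 3294 ± 170 and 221 ± 11.0 TPM.

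Of 6 calcineurin inhibitors and scaffolds, Chp1 (76.1 ± 5.55 TPM), Rcan3 (66.8 ± 1.80), Cabin1 (35.7 ± 5.90) and Rcan1 (6.91 ± 0.772) were detected. Rcan1, itself a gene that calcineurin and NFAT induce, was the lowest of these, and Rcan2 had 1 count. Nfat5, the NFAT relative that responds to osmotic stress and not to calcineurin, was at 9.32 ± 2.02 TPM. Kinases that rephosphorylate NFAT were detected in 8 of 9 cases with a median of 67.1 TPM. Csnk1a1 and Csnk1d, of the casein kinase 1 family, were highest at 236 ± 17.5 and 214 ± 20.5 TPM, and Gsk3b and Gsk3a were at 78.1 ± 2.80 and 67.1 ± 6.59. The exportin Xpo1, which carries NFAT out of the nucleus, was at 64.1 ± 6.45 TPM, and the noncoding repressor Nron was at 0.247 ± 0.101 TPM.

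All 6 transcription factors that bind with NFAT were detected. Junb and Jun, subunits of AP-1, were at 2883 ± 568 and 243 ± 60.5 TPM, both lowest in library 2, and Fos was at 80.8 ± 2.90 TPM. Foxp3, which defines regulatory T cells, was at 18.4, 20.9 and 17.4 TPM in these cells labelled naive. Of 12 genes that NFAT is known to help induce in activated T cells, 8 were detected, with a median of 6.69 TPM over the 12. The cytokine genes Il2, Ifng and Il4 had 6.86, 7 and 1 expected counts in all and lay below 1 TPM. Nr4a1, an early gene of receptor signalling, was at 436, 368 and 425 TPM, Cd40lg at 223 ± 6.79 and Ctla4 at 54.1 ± 3.54 TPM.

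**Figure D5:**
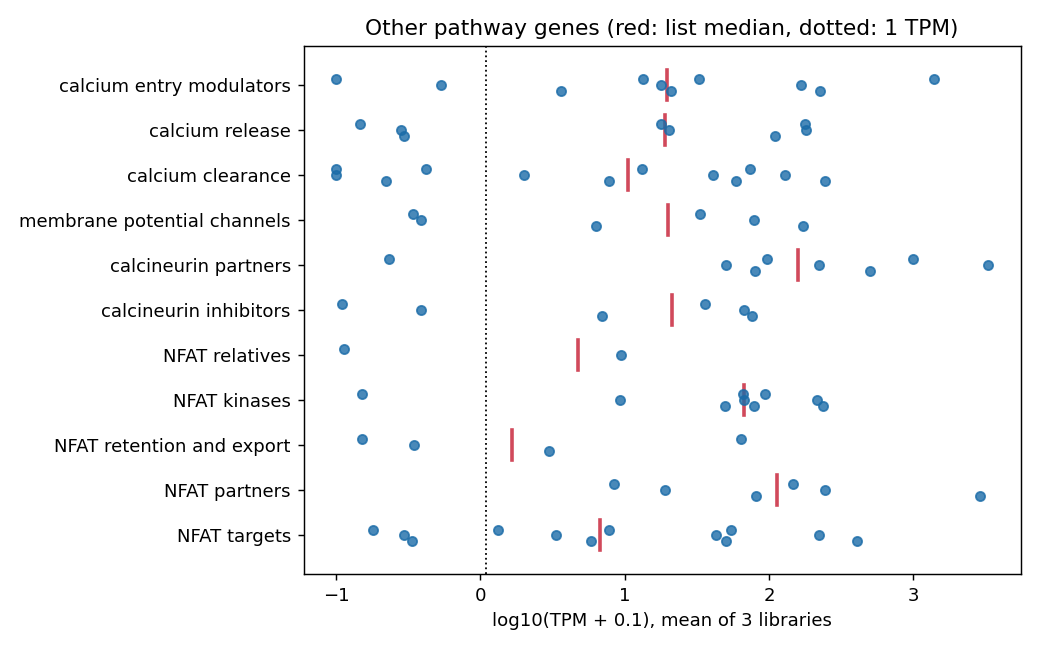
Mean TPM of each of the 83 pathway genes as log10(TPM + 0.1), 1 row for each list, with the list median in red and 1 TPM as a dotted line. Calcineurin partners (159 TPM) and NFAT partners (114 TPM) have the highest medians, and every list but the NFAT partners holds genes to the left of the dotted line.

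Overlaps with other genes were taken from gene bounds and not from exons. Only reads from exon bases shared by genes on opposite strands would need strand to be told apart. Whether counting used strand is not given in the sources used here. Opposite-strand genes overlap Stim1, Stim2, Orai1, Kcna3, Ppp3ca, Ppp3cb, Nfatc1 and Nfatc3, and none overlaps Orai2 or Nfatc2. Ppp3ca is also overlapped by Gm42822 on the same strand, where strand would not separate reads. Expected counts were whole numbers in all libraries (tolerance 0.005) for 8 of the 10 genes. Nfatc2 and Nfatc3 were the exceptions, so some of their reads were shared with other genes by the estimate.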

How the data were processed

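The 3 technical libraries come from 1 mouse. Per the text deposited with the files, gene and transcript tables used mm10 with GENCODE M21, and a further table used M4. For aligner, counting tool and strand setting: not given in the sources used here. Expected counts, the estimated counts of reads per feature, and TPM were deposited by the authors for genes and transcripts, as maximum-likelihood values (used here) and posterior means. The deposited isoform percent is the share of a gene's TPM given to a transcript. Deposited bounds of TPM credibility intervals, named here as a score, belong to the posterior TPM scale. Whole-number counts on M4 for 22457 genes were deposited by the authors and served as an alternative. Entries that name no gene held 0.247%, 0.200% and 0.325% of expected counts and were left out of tests.

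Ratios were log2((TPM + 0.1)/(TPM + 0.1)) per library. Libraries were compared with a chi-square test of homogeneity on rounded expected counts, with TMM sizes from edgeR 4.0.16, for genes whose mean count was 10 or more, and Benjamini-Hochberg adjustment (called under 0.05); scripts used scipy 1.17.1 and were tested on simulated data. With 1 group there is no contrast between conditions. edgeR's technical coefficient of variation over all tested genes was 12.7%. Nfatc1 starts or ends within 1000 bases formed a class. Exon inclusion was the share of TPM among coding transcripts that cover both neighbouring exons. Reads carry no molecular identifiers, so intervals and limits cover counting error only. The 10 genes, the lists and the tests were chosen with earlier results of these data known. The text names all 10 genes, list genes (a few, included in list totals, are not reported here), all Nfatc1 transcripts and other transcripts with an isoform percent of at least 10 in any library; Stim1-202 and Stim2-204 were named after their values were seen. Alternatives were library totals, DESeq2 1.42.0 size factors, other count and TPM minimums, other pseudocounts, posterior means, TPM without ribosomal and mitochondrial genes, counts without length, M4 counts, coding transcripts only (chosen after seeing the data) and leaving out each library. Protein sequences were not used here.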

Additional observations from a re-analysis of the deposited data

How the results depend on the processing

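Ratios between paralogs are log2 values here. Without length correction, the values were 2.11 for Stim1 to Stim2, 0.17 for Orai1 to Orai2, 1.60 for Ppp3ca to Ppp3cb and, reversed in sign, -0.059 for Nfatc1 to Nfatc3, and 4 of 9 neighbouring genes in the order of levels had ranges apart. On M4 counts they were 0.76, 3.64, 1.87 and, reversed, -0.22, with -1.88 for Nfatc2 to Nfatc3. On coding transcripts only, an alternative chosen after seeing the data, they were 1.12 for Stim1 to Stim2, 1.58 for Ppp3ca to Ppp3cb, 3.04 for Nfatc1 to Nfatc2, 0.46 for Nfatc1 to Nfatc3 and -2.58 for Nfatc2 to Nfatc3. M4 counts called 1895 of 10013 genes (18.9%) and 4 of the 10 between libraries. The causes of these moves were not tested.

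Leaving out each library in turn gave 1903 genes called (without library 2, 14.7% of those tested) to 4875 (without library 1, 36.8%). Of the 10 genes, 5 to 7 were called, 7 to 8 neighbours were apart, and 60 to 62 pathway genes were detected. The ratios ran from 1.74 to 1.82 (Stim1 to Stim2), 1.30 to 1.43 (Orai1 to Orai2), 2.05 to 2.29 (Ppp3ca to Ppp3cb), 1.47 to 1.78 (Nfatc1 to Nfatc2), 0.0027 to 0.21 (Nfatc1 to Nfatc3) and -1.57 to -1.47 (Nfatc2 to Nfatc3). The upstream share of Nfatc1 ran from 15.1% to 21.2% and the proximal end from 52.4% to 53.7%. Of the values that answer a comparison, 79 were classed as the same under an alternative, 16 as moved and 2 as reversed. The class of the same values still allowed sizeable changes. Without library 3, for example, it held a fall from 5238 to 3615 genes called and from 7 to 5 of the 10 genes. No paired analysis was possible because the labels give a single group. Genes with few counts, such as Nfatc4 and Ppp3r2, were limited by depth.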
